A study of Mus musculus with 6 samples.

Results

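Messenger RNA levels of 46 genes of glycolysis and the hypoxia response were compared between young and old neural stem cells, from which the adult brain makes neurons and glia. The genes were taken by symbol. They were enzymes from hexokinase to lactate dehydrogenase, regulators of glycolytic flux or of pyruvate dehydrogenase, and glycogen enzymes. Added were the hypoxia-inducible factors (HIF) with the proteins that sense oxygen, and genes listed as targets of HIF. The young group held 3 samples from C57BL/6JRj mice of 6 weeks, and the old group 3 samples from mice of the same strain at 9 months. C57BL/6JRj is a substrain of the common black laboratory mouse, and the labels name no transgene or treatment. Each sample was hybridised to 1 array, and levels are log2 values per probe set, the group of probes that reads 1 transcript. Whether replicates were separate animals or separate cultures, and whether the cells had been cultured at all, is not in the labels. The p-values therefore reflect the spread among the 6 samples, which may be technical.

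Glycolysis breaks glucose down to pyruvate, which the cell either burns in its mitochondria or reduces to lactate. When oxygen is plentiful, prolyl hydroxylases mark the HIF alpha subunits, the von Hippel-Lindau protein Vhl binds the mark and the subunits are destroyed. When oxygen is scarce the alpha subunits persist, pair with Arnt and switch on genes of glycolysis, blood vessel growth and mitochondrial turnover. Neural stem cells lie in a niche of low oxygen and are known for high rates of glycolysis.

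Of the 46 genes 42 had a probe set with that symbol alone, and each gene stands for its brightest such probe set. Of these, 39 exceeded log2 4 on 3 or more arrays and were tested among 10050 named genes, while Pfkfb4, Car9 and Car12 were at the lowest value, 2.14, on all 6 arrays. Gapdh was read only by control probe sets, Bnip3l only by probe sets shared with another symbol, and Gpi1 and Eno1 were not analysed here. Ero1lb appears in the annotation under its current symbol, Ero1b. In limma with Benjamini-Hochberg adjustment over all probe sets, 18 of the 39 tested genes fell and 5 rose in old cells at an adjusted p under 0.05. Of all 10050 named genes 40.6% passed, as did 36.6% of all probe sets. Of the named genes 18.5% fell and 22.0% rose, so the share of falls was above the background and the share of rises below it. A fall of at least 1 on the log2 scale was called for 6 members and a rise of that size for 0, against 4.84% and 6.62% of all named genes. The median log2 change of the 39 genes was -0.19, against 0.01 over all named genes. All 3 old arrays lay below all 3 young arrays for 22 of the 39, and above them for 9, against 28.2% and 31.8% of all named genes. With any 1 array left out, 14 to 16 genes fell and 3 to 5 rose, with 3 rises without old replicate 1 or old replicate 3.

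**Figure D1:**
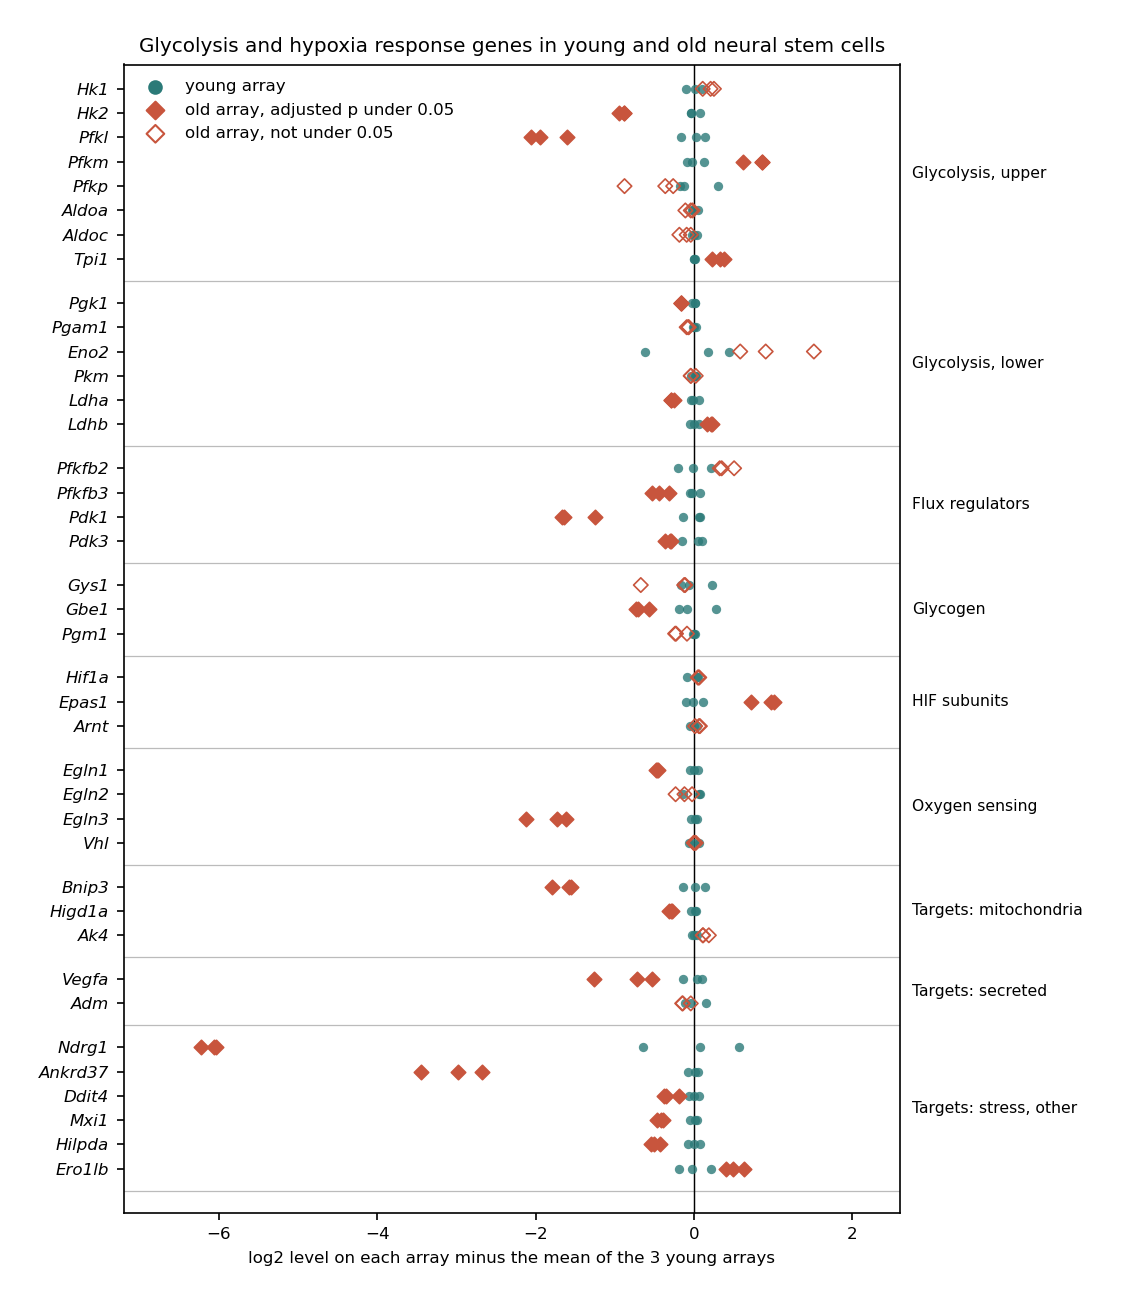
Log2 level on each array minus the mean of the 3 young arrays (x axis), for the 39 tested genes grouped by role (y axis). Circles are young arrays and diamonds old arrays, with diamonds filled where limma's adjusted p was under 0.05; the old arrays of Ndrg1 lie farthest to the left, followed by those of Ankrd37, while those of Pfkm and Epas1 lie to the right.

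Several features of the arrays ran along with age. The 18 hybridisation controls, added in fixed amount, were lower on every old array, averaging 13.24 ± 0.28 at the young and 12.28 ± 0.098 at the old age (log2, SD, n = 3). Of 13 markers of neural stem cells and radial glia with a probe set, 12 were above log2 4 on every young array and 11 on every old array, and Prom1 was under it on all 6. Of the 12 tested, 7 did not pass, 4 fell and Msi1 rose, with a median log2 change of -0.11. Their summed log2 level was 148.8 to 149.1 in young and 141.7 to 142.4 in old arrays, and most of that drop was Hes5, a target of Notch signalling. Hes5 went from 7.78 ± 0.22 to 2.43 ± 0.30 (SD, n = 3) and so to below log2 4. All 7 measured markers of dividing cells fell, with sums of 88.84 to 88.94 and 83.96 to 85.96, and 4 of 5 tested neuroblast markers fell, with sums over 8 markers of 65.91 to 70.65 and 52.55 to 53.94. Of 8 astrocyte markers, among them Aldoc, 4 rose and 2 fell, with sums of 81.72 to 84.27 in young and 88.62 to 90.98 in old arrays. Of those that rose, S100b, a calcium-binding protein, was 7.64-fold and the water channel Aqp4 6.53-fold higher in old cells. The 2 that fell were Slc1a2 (log2 change -0.64, limma adjusted p = 0.0311) and Fgfr3 (-0.59, limma adjusted p = 0.000836). Of 4 tested ependymal markers 3 rose and 1 fell, with sums over 7 markers of 28.74 to 30.65 and 31.85 to 33.49. Of 5 tested neuron markers 3 fell and 1 rose, with sums over 10 of 53.28 to 53.90 and 47.10 to 48.24. Tubb3, a tubulin of young neurons, went from 9.50 ± 0.18 to 3.83 ± 0.33 (SD, n = 3). Its old level is near background, so the size of that fall is uncertain. Gad1 was the 1 that rose, 2.99-fold, and Map2 did not pass. Rbfox3, Syt1, Stmn2, Slc17a6 and Nefl, also on the neuron list, were under log2 4 on every array. Of 5 tested markers of the oligodendrocyte lineage 2 fell, with sums of 64.82 to 65.10 and 61.31 to 61.77. Of the remaining lists, 10 of 10 for microglia, 8 of 9 for endothelial cells and 9 of 10 for mural cells and fibroblasts were under log2 4 on every array. Among the called markers, Hes5, Snap25 and Neurod1 were under log2 4 on every old array, and Foxj1, an ependymal marker, on every young array. Each entered the test only through the age at which it was high, so its place in these counts follows in part from the filter. Fewer cells of a type and less RNA per cell cannot be told apart in such bulk samples, and the part of these differences in the results given here was not tested.

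Among the HIF subunits, the transcript of 1 alpha subunit was higher in old cells and those of the other two did not pass. Epas1, the alpha subunit of the second HIF complex, read 11.89, 12.02 and 11.80 on the young arrays and 12.62, 12.87 and 12.92 on the old ones. All 3 old arrays were above all 3 young arrays, and the rise of 0.90 ± 0.10 (log2, SE) was 1.87-fold (adjusted p = 0.00235). Hif1a, the alpha subunit of the first complex, read 13.64, 13.63 and 13.50 in young and 13.66, 13.65 and 13.64 in old cells at its brightest probe set. The difference was 0.06 with a 95% confidence interval of -0.08 to 0.20 (adjusted p = 0.468). At its dimmest kept probe set Hif1a rose by 0.18 (adjusted p = 0.0433). Arnt, the partner of both alpha subunits, differed by 0.05 with an interval of -0.07 to 0.17 (adjusted p = 0.45).

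Of 4 tested genes that sense oxygen or break HIF down, 2 fell and 0 rose, against 18.5% and 22.0% of all named genes. Egln3, a prolyl hydroxylase that HIF itself induces, read 10.59, 10.62 and 10.54 in young cells and 8.47, 8.96 and 8.85 in old cells. The groups were far apart beside their spread, and the fall was 3.54-fold (log2 change -1.82 ± 0.14, SE, adjusted p = 0.000597). Egln1, the main hydroxylase of HIF in most tissues and also HIF-induced, had 12.98, 12.94 and 13.04 in young and 12.50, 12.53 and 12.53 in old cells. Its fall was smaller, 1.38-fold by the brightest probe set (adjusted p = 0.00158). Egln2, the hydroxylase that HIF does not induce, had a log2 difference of -0.13 with an interval of -0.35 to 0.10 (adjusted p = 0.314). Vhl, the subunit of the ubiquitin ligase that recognises hydroxylated HIF, had one of 0.01 with an interval of -0.12 to 0.13 (adjusted p = 0.931). Of 17 other tested genes listed as HIF regulators, 3 fell and 1 rose, shares of 17.6% and 5.88% against 18.5% and 22.0% of all named genes. The 3 that fell, named after their values were seen, were Arntl (-1.10), Ube2s (-0.47) and Commd1 (-0.21). The one that rose was P4htm, a hydroxylase of the endoplasmic reticulum membrane, with a change of 2.29 (adjusted p = 0.00274).

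Of the 11 tested genes listed as HIF targets outside glycolysis, 8 fell and 1, Ero1lb, rose. These are 72.7% and 9.09%, against 18.5% and 22.0% of all named genes, and the median log2 change was -0.43. Ndrg1, a stress-induced gene tied to growth arrest and differentiation, was high in young cells and at background in old cells. Its young arrays read 8.88, 9.60 and 10.10 and its old arrays 3.31, 3.46 and 3.49. Since no detection calls were used here, log2 4 stands for background, and against that level Ndrg1 fell at least 46.2-fold (adjusted p = 0.000176). It passed the filter on low values only through the young arrays, so its own place among the falls follows in part from that filter. Its other 2 kept probe sets also fell to below log2 4, by at least 16.0-fold and at least 10.8-fold. Ankrd37, an ankyrin repeat protein with strong induction by HIF, read 8.81, 8.90 and 8.94 in young and 5.91, 6.20 and 5.43 in old cells. The old arrays were all lower and more spread out than the young ones, and the fall was 8.21-fold (log2 change -3.04 ± 0.20, SE, adjusted p = 0.000396).

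Of the 3 tested targets that act at mitochondria 2 fell and 0 rose, against 18.5% and 22.0% of all named genes. Bnip3, an outer membrane receptor that delivers mitochondria to autophagy, read 12.25, 12.41 and 12.53 in young and 10.60, 10.81 and 10.84 in old cells. The groups did not overlap, and the fall was 3.13-fold (log2 change -1.65 ± 0.10, SE, adjusted p = 0.000347). Higd1a, which acts on the respiratory chain when oxygen is low, gave a result that depended on the probe set. Its brightest probe set fell from 13.36 ± 0.034 to 13.06 ± 0.018 (SD, n = 3, adjusted p = 0.00562), the next rose from 11.82 to 12.10 (adjusted p = 0.0343), and the dimmest differed by 0.37 (adjusted p = 0.237). Such opposite calls within 1 gene were seen for 10 of 4659 genes with at least 2 kept probe sets, or 0.215%. Ak4, a mitochondrial adenylate kinase, did not pass at its brightest probe set (0.14, interval 0.02 to 0.26, adjusted p = 0.0738) and rose by 0.39 at its other kept probe set (adjusted p = 0.0149).

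Of the secreted targets, Vegfa fell and Adm did not pass. Vegfa, the growth factor of blood vessels, read 10.00, 10.16 and 10.23 in young and 8.86, 9.60 and 9.41 in old cells. All old arrays were below all young arrays, with old replicate 1 the lowest, and the fall was 1.79-fold (adjusted p = 0.026, from 0.01 to 0.108 over the alternatives). Dropping young replicate 2, young replicate 3 or old replicate 3 ended the call. Adm, the vasodilator peptide adrenomedullin, read 12.44 to 12.71 in young and 12.41 to 12.52 in old cells, and the groups overlapped (adjusted p = 0.346). The carbonic anhydrases Car9 and Car12, membrane enzymes of acid balance, were at the lowest value throughout.

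The remaining targets act in stress, growth and protein folding. Hilpda, a protein of lipid droplets, had a log2 change of -0.49 (adjusted p = 0.00283), and Mxi1, an antagonist of Myc, one of -0.43 (adjusted p = 0.00235). Ddit4, an inhibitor of growth signalling through mTOR, read 13.80, 13.86 and 13.94 in young and 13.48, 13.51 and 13.68 in old cells. This fall of 1.24-fold passed (adjusted p = 0.0235, from 0.00388 to 0.0815 over the alternatives), though not without young replicates 2 or 3 or without old replicates 1 or 2. Ero1lb, an oxidase that forms disulfide bonds in the endoplasmic reticulum, was the 1 gene on the target list that rose. It was counted with the targets although its relative Ero1l is the form that hypoxia induces. Ero1lb went from 8.88 ± 0.20 to 9.39 ± 0.12 (SD, n = 3, adjusted p = 0.0245, from 0.0139 to 0.449 over the alternatives). Its call was lost without young replicate 3 and without old replicates 1 or 3, and its other kept probe set had a difference of -0.92 (adjusted p = 0.0912). Its relative Ero1l, the member of this enzyme pair that hypoxia induces, read 12.89, 13.22 and 13.20 in young and 11.96, 12.01 and 12.22 in old cells. The latter gene, named after its values were seen, fell 2.06-fold (adjusted p = 0.00243).

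Of a list of 42 further genes reported as hypoxia targets 29 were tested, of which 16 fell (55.2%) and 4 rose (13.8%). The shares over all named genes were 18.5% and 22.0%, and the median log2 change of the 29 was -0.32. This list was chosen with earlier results of these data known, so it is no independent check on the members. Of the 16, 1 was under log2 4 on every old array and entered the test only through the young ones. The 4 with the smallest p include 3 that fell. Selenbp1, which binds selenium, read 8.64, 8.92 and 9.13 in young and 5.67, 5.44 and 6.02 in old cells. Stc2, a secreted glycoprotein, had a log2 change of -2.36 (adjusted p = 0.000346), and Plod2, a collagen lysyl hydroxylase, one of -1.11 (adjusted p = 0.000253). Cxcr4, a chemokine receptor that guides migrating cells, went the other way, from 10.78, 10.80 and 10.76 to 11.94, 11.89 and 11.85 (adjusted p = 9.64e-05). Plod1, another collagen lysyl hydroxylase on this list, also rose, by 2.50 (adjusted p = 0.0011, named after its values were seen).

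**Figure D2:**
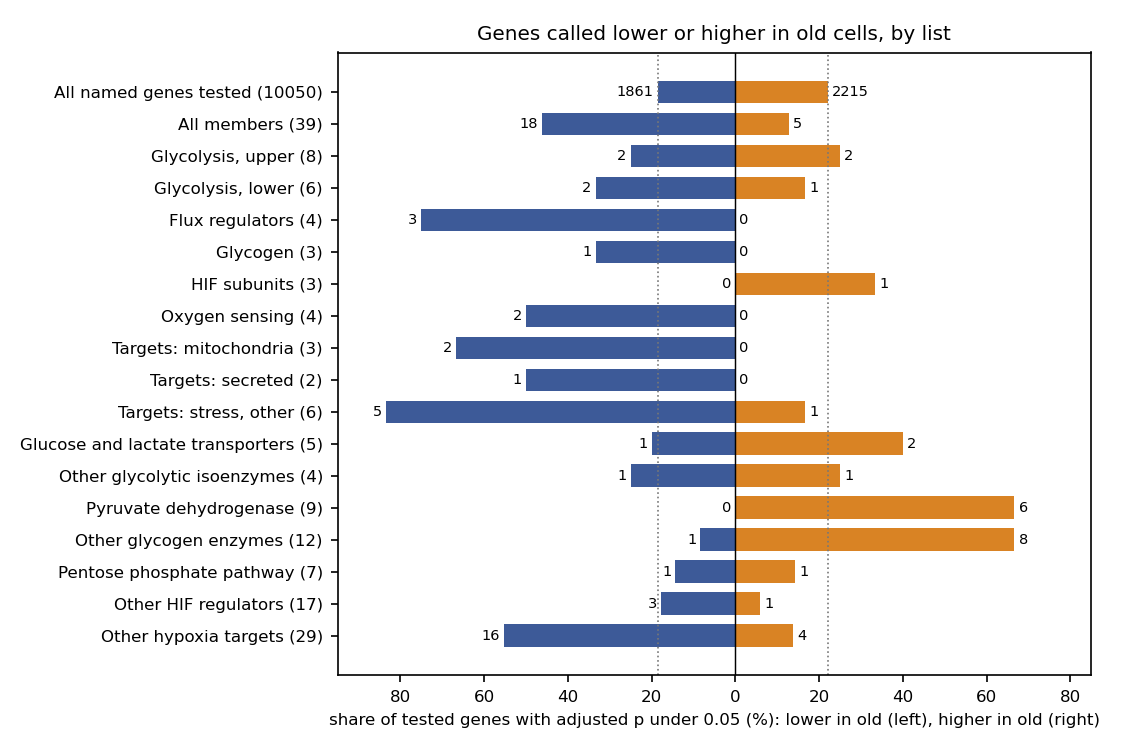
Share of tested genes with limma's adjusted p under 0.05 (x axis, percent; lower in old to the left, higher to the right), for all named genes, all members, their roles and the further lists (y axis, number tested in brackets). Numbers at the bars count the genes and dotted lines mark the shares over all named genes; 16 of 29 other hypoxia targets lie to the left, and 6 of 9 genes of the pyruvate dehydrogenase list to the right.

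HIF binds DNA at a short core, ACGTG or GCGTG, and promoters of members with large changes are shown for where these letters occur. The windows run from 250 bases before to 50 bases after the start of the gene, 300 in all, from RefSeq on build GRCm38.p6, and were given for 43 of the 46 symbols; Ndrg1, Epas1 and Bnip3l have none here. Printed are the 5 genes with the largest fall and the 1 with the largest rise among those that passed and have a window, by the first window of the table, 5′ to 3′ on the strand of the gene. Capitals mark the core on either strand, ACGTG and GCGTG or their reverse complements CACGT and CACGC.
Ankrd37 (chr8:45999801-46000100, minus strand): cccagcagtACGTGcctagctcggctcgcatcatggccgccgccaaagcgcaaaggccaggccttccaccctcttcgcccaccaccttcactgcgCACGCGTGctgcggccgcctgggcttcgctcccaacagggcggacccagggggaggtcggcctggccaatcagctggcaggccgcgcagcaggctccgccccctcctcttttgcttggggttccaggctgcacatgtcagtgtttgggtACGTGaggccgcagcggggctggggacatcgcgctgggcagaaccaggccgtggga
Pfkl (chr10:78009758-78010057, minus strand): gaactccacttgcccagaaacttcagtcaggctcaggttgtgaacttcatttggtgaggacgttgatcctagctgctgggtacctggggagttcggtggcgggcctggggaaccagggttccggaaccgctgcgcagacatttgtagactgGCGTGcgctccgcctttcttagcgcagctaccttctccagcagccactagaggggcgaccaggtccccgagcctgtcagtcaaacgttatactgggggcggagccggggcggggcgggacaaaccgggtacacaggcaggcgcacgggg
Egln3 (chr12:54203825-54204124, minus strand): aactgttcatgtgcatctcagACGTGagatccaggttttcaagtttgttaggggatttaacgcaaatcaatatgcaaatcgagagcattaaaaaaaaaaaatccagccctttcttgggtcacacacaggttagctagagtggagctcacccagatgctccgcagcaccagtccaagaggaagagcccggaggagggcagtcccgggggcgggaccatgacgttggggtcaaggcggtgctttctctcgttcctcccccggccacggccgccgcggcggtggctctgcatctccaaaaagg
Bnip3 (chr7:138909457-138909756, minus strand): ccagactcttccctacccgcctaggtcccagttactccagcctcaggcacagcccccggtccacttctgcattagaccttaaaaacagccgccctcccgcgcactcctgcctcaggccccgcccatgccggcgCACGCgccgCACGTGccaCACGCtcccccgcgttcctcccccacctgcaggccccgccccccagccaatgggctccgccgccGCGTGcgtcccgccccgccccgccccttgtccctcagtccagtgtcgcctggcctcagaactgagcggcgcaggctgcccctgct
Pdk1 (chr2:71872974-71873273, plus strand): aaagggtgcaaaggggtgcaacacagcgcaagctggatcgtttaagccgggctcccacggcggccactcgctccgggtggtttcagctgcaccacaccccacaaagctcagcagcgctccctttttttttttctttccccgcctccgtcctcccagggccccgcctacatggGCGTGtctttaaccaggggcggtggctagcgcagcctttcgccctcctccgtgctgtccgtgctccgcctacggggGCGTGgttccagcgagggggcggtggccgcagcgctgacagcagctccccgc
Pfkm (chr15:98092339-98092638, plus strand): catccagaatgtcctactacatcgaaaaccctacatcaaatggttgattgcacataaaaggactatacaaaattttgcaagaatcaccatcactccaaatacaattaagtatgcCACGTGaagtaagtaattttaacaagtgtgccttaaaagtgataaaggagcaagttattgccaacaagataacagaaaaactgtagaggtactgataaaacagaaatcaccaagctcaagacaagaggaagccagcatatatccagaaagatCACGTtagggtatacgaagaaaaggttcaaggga

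In these windows Ankrd37 held 4 matches, of which ACGTG began at positions -241 and -6 counted from the start. Bnip3 held 5, among them a CACGTG, which reads as ACGTG on both strands, from position -108. The windows of Egln3 and Pfkl held 1 match each, ACGTG and GCGTG, and that of Pdk1 2 of GCGTG. The first of 4 windows of Pfkm, a gene that rose, held 3 matches of ACGTG, of which 2 lie in a CACGTG. At least 1 window with ACGTG on either strand was found for 14 of 17 members that fell (82.4%), 1 of 4 that rose (25.0%) and 10 of 16 that did not pass (62.5%). The same holds for 30.2% of the 8259 named genes tested that have a window, for 28.6% of those that fell and for 30.0% of those that rose. With GCGTG counted too, the share was 94.1% of the members that fell and 70.0% of all named genes tested. Genes differ in their number of windows. Among the members with 1 window, 9 of 11 that fell, 0 of 3 that rose and 3 of 9 that did not pass held ACGTG. Of all genes with 1 window in the table, tested or not, 19.4% did. By any window ACGTG was found for 21.8% of all genes and 30.2% of those tested, so 19.4% is not the share of tested genes. The members were chosen as genes of the HIF pathway, so their share is not independent of that choice. A match describes letters in a window and no binding was measured.

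The enzymes of glycolysis itself moved in both directions. Of 14 tested, 4 fell and 3 rose, 28.6% and 21.4%, and the median log2 change was -0.07. With 14 genes, both counts were near the shares of all named genes, 18.5% and 22.0%. The largest fall was that of Pfkl, the liver-type phosphofructokinase, at 10.53, 10.35 and 10.65 in young and 8.57, 8.91 and 8.45 in old cells. The groups were well apart, with a 3.65-fold fall (log2 change -1.87 ± 0.15, SE, adjusted p = 0.000702), and the other kept probe set fell by 1.91. Pfkm, the muscle type of the same enzyme, went up, from 11.25, 11.18 and 11.40 to 11.89, 12.13 and 12.14. That rise was 1.71-fold (adjusted p = 0.00311). Pfkp, the platelet type, was lower on every old array but did not pass (log2 difference -0.50, interval -1.03 to 0.03, adjusted p = 0.118).

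The hexokinases, which trap glucose in the cell as glucose 6-phosphate, came next. Hk2, the form induced by HIF, read 12.06, 12.18 and 12.07 in young and 11.21, 11.15 and 11.22 in old cells. The old arrays were all lower, by 1.87-fold (log2 change -0.91 ± 0.055, SE, adjusted p = 0.000312). Hk1, the main hexokinase of brain, was higher on every old array, at 10.89 to 11.03 against 10.68 to 10.88, and did not pass at its brightest probe set (adjusted p = 0.0983). At its dimmer probe set Hk1 rose by 0.74 (adjusted p = 0.0382). Tpi1, which interconverts the triose phosphates, rose 1.24-fold (adjusted p = 0.0103), and all 3 of its probe sets passed as higher. The aldolases did not pass, Aldoa with a difference of -0.06 (interval -0.18 to 0.07) and Aldoc with -0.11 (interval -0.25 to 0.03).

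Of 6 tested genes of the lower steps 2 fell and 1 rose, against 18.5% and 22.0% of all named genes. Ldha, the lactate dehydrogenase subunit of glycolytic tissues, read 14.08, 13.97 and 14.00 in young and 13.72, 13.76 and 13.72 in old cells, a fall of 1.21-fold (adjusted p = 0.00931). Ldhb, the subunit of oxidative tissues, rose from 13.01 ± 0.054 to 13.21 ± 0.031 (SD, n = 3, adjusted p = 0.0292, from 0.00389 to 0.127 over the alternatives). That call held only when the array dropped was young replicate 3, and 3 further probe sets of Ldhb, with differences of 0.11 to 0.18, did not pass. Pgk1, the first enzyme of the pathway to yield ATP, fell 1.12-fold at its brightest probe set (adjusted p = 0.0284, from 0.000665 to 0.0923 over the alternatives), and did not pass when any single array was dropped. Its 2 dimmer probe sets had changes of -0.28 (adjusted p = 0.00972) and -0.38 (adjusted p = 0.0129).

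Pgam1, the phosphoglycerate mutase, differed by -0.08 (adjusted p = 0.193), and Pkm, the pyruvate kinase of most tissues, by -0.02 with an interval of -0.14 to 0.10 (adjusted p = 0.753). Eno2, the neuronal enolase, read 5.59, 6.40 and 6.66 in young and 7.12, 6.80 and 7.73 in old cells. Every old array was higher, but the spread was wide and the difference of 1.00 ± 0.36 (log2, SE) did not pass (adjusted p = 0.0827). Gapdh, read by a control probe set outside the fit, was at 14.51, 14.54 and 14.56 in young and 14.41, 14.41 and 14.44 in old cells. The difference of -0.12 gave p = 0.1 in a two-sided exact permutation test, which cannot go lower with 3 against 3 samples.

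Of 4 tested regulators of glycolytic flux or of pyruvate dehydrogenase, 3 fell and 0 rose, against 18.5% and 22.0% of all named genes. Pdk1, the HIF-induced kinase that shuts off pyruvate dehydrogenase and so keeps pyruvate from the mitochondria, read 11.9999, 12.21 and 12.20 in young and 10.49, 10.89 and 10.47 in old cells. The groups did not overlap, and the fall was 2.86-fold (log2 change -1.52 ± 0.14, SE, adjusted p = 0.00106). Pdk3, a kinase of the same family, had a change of -0.32 (adjusted p = 0.0283, from 0.00883 to 0.0931 over the alternatives), a call that held only when the array dropped was young replicate 2. Pfkfb3, which makes the activator of phosphofructokinase and is induced by HIF, read 12.11, 11.99 and 12.02 in young and 11.59, 11.72 and 11.51 in old cells, a fall of 1.35-fold (adjusted p = 0.00828). Pfkfb2, the heart form of that enzyme, was higher on every old array, at 9.53 to 9.71 against 9.01 to 9.42, and did not pass (adjusted p = 0.0507).

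Pyruvate dehydrogenase, the complex that Pdk1 acts on, and its regulators were taken as a further list. In limma 6 of 9 tested genes rose and 0 fell, against 22.0% and 18.5% of all named genes. At an unadjusted p under 0.05 1 gene, the phosphatase Pdp2, was lower (-0.14, unadjusted p = 0.0354, named after its values were seen). The median log2 change was 0.42. The subunits Dld (0.46, adjusted p = 0.0049), Pdhx (0.42, adjusted p = 0.00618) and Dlat (0.51, adjusted p = 0.00641) were among them. Pdk2, another kinase of the complex, went from 7.57, 7.03 and 7.91 in young to 8.89, 9.24 and 9.09 in old cells, opposite in direction to Pdk1. Its rise was 1.57 on the log2 scale (adjusted p = 0.00577).

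Glycogen, the stored form of glucose, is made by Gys1 and branched by Gbe1. Gbe1 read 9.42, 9.52 and 9.89 in young and 8.88, 8.90 and 9.05 in old cells and fell 1.59-fold (adjusted p = 0.0146, from 0.00767 to 0.0654 over the alternatives), a call lost without old replicates 1 or 2. Gys1 read 8.53, 8.43 and 8.82 in young and 7.92, 8.48 and 8.47 in old cells, and the groups overlapped (adjusted p = 0.264). Pgm1, which interconverts glucose phosphates on the way to glycogen, had a difference of -0.19 that did not pass (adjusted p = 0.0541). In the further list of glycogen enzymes and sugar phosphate mutases, 8 of 12 tested genes rose and 1 fell. These are 66.7% and 8.33%, against 22.0% and 18.5% of all named genes. Among the 8 was the mutase Pgm3 (0.22, adjusted p = 0.0464, named after its values were seen). Their median log2 change was 0.38. Phosphorylase, which breaks glycogen down, rose in its brain form Pygb by 0.69 (adjusted p = 0.00114). Phkb, a subunit of the kinase that activates phosphorylase, rose by 0.85 (adjusted p = 0.0011), and Phkg1, a catalytic subunit of that kinase, rose from at most 2.15 on the young arrays to 5.31, 5.87 and 6.77, at least 3.96-fold. Phkg1 entered the test only through its old arrays, so its place among the 8 rises follows in part from the filter. The 1 gene that fell was Phkg2, the other catalytic subunit, from 10.24 to 9.96 (adjusted p = 0.0404, named after its values were seen). Ugp2, which makes the sugar donor for glycogen, rose by 0.37 (adjusted p = 0.00536).

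Of 5 tested transporters of glucose and lactate 1 fell and 2 rose, against 18.5% and 22.0% of all named genes. Slc2a3, the high-affinity glucose transporter of neurons and a HIF target, read 12.23, 12.42 and 12.30 in young and 10.98, 11.17 and 11.11 in old cells, a change of -1.23 (adjusted p = 0.000376). Slc2a1, the glucose transporter of most cells and also a HIF target, rose by 0.16 (adjusted p = 0.0319, from 0.001 to 0.104 over the alternatives), and did not pass when any single array was dropped. Slc2a10, a transporter of the same family, was at 2.14 on every young array and at 6.51, 5.45 and 7.09 on the old ones, at least 5.11-fold higher (adjusted p = 0.00141). It passed the filter only through the old arrays, so its place among the rises follows in part from that filter. Slc16a1, which carries lactate, differed by 0.19 and did not pass (adjusted p = 0.0595).

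Related enzymes were then compared within each array, which shows whether the members of a pair changed unequally and says nothing of their levels against each other. Of 14 pairs chosen, 10 had both genes tested, and all 10 had the 3 old arrays wholly above or wholly below the 3 young ones, as had 65.1% of all pairs of named genes tested. The exact permutation test gave p = 0.1 for each pair (two-sided, also 0.1 after adjustment over the 10), the floor for 3 against 3 samples, so the design cannot reach 0.05. The difference of Pfkm over Pfkl moved most, from 0.77 ± 0.061 in young to 3.41 ± 0.25 in old cells (log2, SD, n = 3). That of Egln3 over Egln2 moved by -1.70, that of Pdk1 over Pdk3 by -1.20 and that of Hk2 over Hk1 by -1.10. Epas1 over Hif1a shifted by 0.84 and Ldha over Ldhb by -0.48. The smallest shift was that of Aldoc over Aldoa, -0.05.

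**Figure D3:**
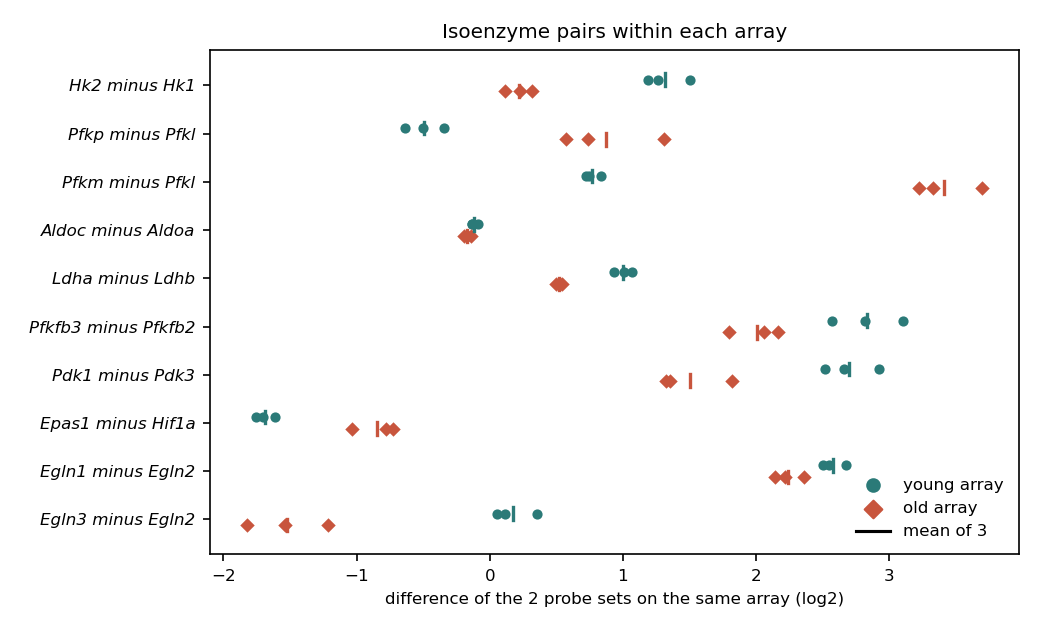
Difference between the probe sets of 2 related genes on the same array (x axis, log2) for the 10 pairs tested (y axis). Circles are young arrays, diamonds old arrays and vertical strokes the mean of 3; the ages lie apart in each pair, farthest for Pfkm minus Pfkl and least for Aldoc minus Aldoa.

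Of 17 members with at least 2 kept probe sets, 13 had all of them on the same side of 0, and 7 had every one called in the same direction. Among these 7, the dimmest probe set changed more than the brightest in 4, while over all genes with the brightest and the dimmest called the same way the dimmest changed more in 77.6%. Pdk1 had log2 changes of -1.52, -1.67 and -2.38 from its brightest to its dimmest kept probe set, and Egln1 of -0.47 and -0.79. Egln3 ran the other way, with -1.82 at the brighter and -1.34 at the dimmer probe set. Several enzymes of glycolysis were read by probe sets above log2 13.5, among them Aldoa, Pgk1, Pgam1, Pkm and Ldha, and the size of their changes is given here for such bright probe sets.

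**Figure D4:**
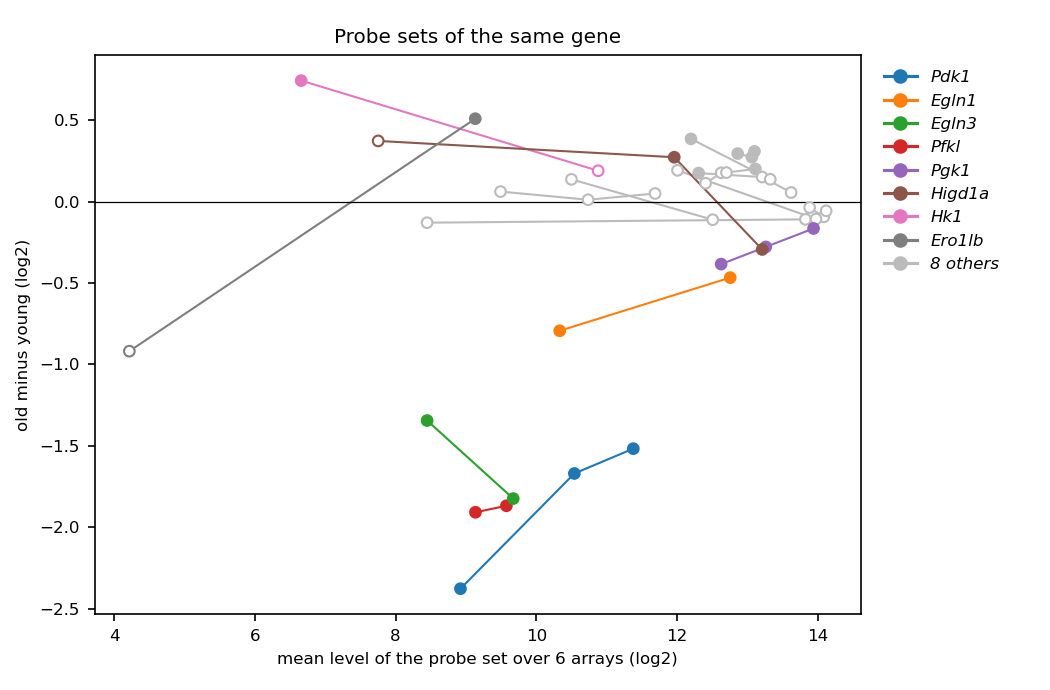
Old minus young (y axis, log2) against the mean level over the 6 arrays (x axis, log2) for each kept probe set of 16 genes with at least 2, Ndrg1 left out; lines join probe sets of a gene. Filled points passed limma at an adjusted p under 0.05; Pdk1 and Egln1 change more at their dimmer probe sets, and Higd1a has filled points on both sides of 0.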

How the data were processed

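Total RNA was extracted with NucleoSpin XS and labelled with the NuGEN Encore Biotin module, per the labels' protocols. What the authors deposited are log2 levels, 1 per probe set and array; the submitters' processing notes name GCRMA, with its version not given in the sources here. GCRMA sets dim probe sets near one lowest value, here 2.14, so changes out of that floor have an uncertain size. Of 45101 probe sets 64 are controls, 34945 have 1 symbol in the platform annotation, 932 have several and 9160 are unnamed here.

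Probe sets exceeding log2 4 on 3 or more of 6 arrays, 19858 in all, entered a two-sided limma fit (version 3.58.1, R 4.3.3, eBayes without trend). P-values were adjusted by Benjamini-Hochberg over these, with a threshold of 0.05. Residual degrees of freedom were 4 and prior ones 1.47, and precision is limited by the number of arrays. The fit was also run on simulated data with known changes and independent values, and the outcome is not given here. That simulation held no shift between arrays, so it cannot speak to array differences that run along with age. A gene stands for its single-symbol probe set with the highest mean. Pairs of enzymes were compared within arrays by exact permutation tests (scipy 1.17.1). Python 3.11.15 with matplotlib 3.10.9 drew the figures. Promoter windows came from RefSeq.

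The members, lists and pairs were chosen with earlier results of these data known. By the rule for names, each member could be named, and up to 4 genes of each further list with the smallest adjusted p. The cell type markers named here, and the genes given as named after their values were seen, were picked outside that rule. The alternatives were other filters, quantile normalization again, median centring, a replicate block, array weights, eBayes with trend or robust, the mean of a gene's probe sets and leaving out each array. Same-numbered young and old replicates had deviations that correlated at -0.16, -0.11 and 0.16, so the numbers were not taken to pair the samples.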

Additional observations from a re-analysis of the deposited data

How the results depend on the processing

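The falls and rises of the members are 18 and 5 of 39 as reported. The count of falls was 15 to 20 under the alternatives that keep all arrays, and 14 to 16 with 1 array left out. The rises came to 4 to 7 and, with 1 array left out, 3 to 5. Over all probe sets 7268 were called, against 5011 to 8414 with all arrays and 5010 to 6838 without 1 of them. With the replicate number as a block 17 members fell, 4 rose and 5600 probe sets were called, but nothing in the labels says that equal numbers mark paired samples. The median log2 change of the members was -0.19, -0.15 with no filter, where fewer low genes were set aside, and from -0.23 to -0.16 with 1 array left out. Of 23 called members 15 passed under each of the 15 alternatives run, and of the 16 that were not called 5 passed under at least 1 of them (Hk1, Pgam1, Pfkfb2, Pgm1 and Ak4). The direction turned with the mean of all kept probe sets for Higd1a (0.12), Ero1lb (-0.20), Aldoc (0.043) and Adm (0.013). It also turned for Pkm with quantile normalization again (0.0049) and for Vhl with median centring (-0.0040). For Vhl it turned as well without young replicate 3 (-0.023) or old replicate 2 (-0.0016), with a range of -0.023 to 0.035 over the arrays left out. The cause was not tested. For genes under log2 4 at 1 age the size of a change is bounded only by that level.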
